A study of Mus musculus with 4 samples.

Results

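Contractile and adhesive cells carry cables of actin filaments that are bundled by crosslinkers, pulled on by myosin II and anchored at focal adhesions, the plaques that join filaments to integrins. The 40 genes described here encode actin isoforms, crosslinkers, filament-binding proteins, tropomyosins, myosin chains, focal adhesion and LIM-domain proteins, and Srf, a transcription factor that many of these genes depend on. They were chosen by gene symbol, as every probe set that the platform annotation assigned to 1 of these 40 symbols alone. This gave 96 of 45101 probe sets, and 40 of 18193 annotated genes. Of the 96 probe sets, 3 were the array maker's own control probe sets for beta-actin.

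RNA came from primary cultures of mesenchymal cells of the palate, grown from E14.0 embryos of outbred wild-type mice, and was hybridised to 4 Affymetrix 3′ expression arrays. The untreated culture was the first group, and a culture given TGF-beta2 for 120 minutes the second. In the other two groups, 60 minutes with an inhibitor preceded the same 120 minutes of TGF-beta2. The inhibitors were SB431542, which blocks the kinase of the TGF-beta type I receptor, and 5Z-7-Oxozeaenol, which blocks the kinase Tak1. The labels do not state how many embryos a culture came from or the dose of either inhibitor, and no array had an inhibitor without TGF-beta2. With 1 array in each group there is no replicate spread and no test was possible, so every difference below is one between 2 single arrays without a replicate check.

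As background, TGF-beta is the classic inducer of the contractile fibroblast state, in which smooth muscle actin and its partner proteins build up over hours to days. Srf acts with coactivators of the myocardin family, some of which leave monomeric actin and enter the nucleus when filaments assemble. Srf binds a short element called the CArG box in the promoters of actin and adhesion genes. Focal adhesion proteins of the zyxin and paxillin families also move between adhesions and the nucleus. In the palate, actomyosin contractility takes part in the movement and fusion of the shelves.

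Promoter windows of 300 bases, from 250 before to 50 after a transcript start, were taken from RefSeq (build GRCm38.p6) for 33 of the 40 genes. A CArG box, 10 bases long and the same pattern on both strands, was found in the windows of 11 of these 33 genes (33.3%), against 488 of 27025 genes with a window (1.81%). The 11 were Acta1, Actc1, Actg1, Cnn2, Fhl1, Fhl2, Lima1, Myl6, Myl9, Srf and Vcl. Stretches upstream of the start are shown for Srf, for a cytoplasmic actin, a myosin light chain and a focal adhesion gene with a CArG box, and for Acta2, Lmod1 and Zyx, which the results below turn on. Only an exact pattern, CC, then letters of A or T, then GG, was counted as a CArG box. Capitals mark CArG boxes in Srf, Actg1, Myl9 and Vcl, and in Acta2 and Lmod1 they mark 10-base runs 1 letter off a CArG box. Acta2 and Lmod1 were thus counted as without one, and whether their runs work as CArG boxes was not tested. Runs that were exact or 1 letter off were present in 47.5% of the windows of the listed genes and in 21.1% of all windows. No such run was found in the Zyx window, which says only that these letters are not in it.
Srf, chr17:46556183-46556272, minus strand: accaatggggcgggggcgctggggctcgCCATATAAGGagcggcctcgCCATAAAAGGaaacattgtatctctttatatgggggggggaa
Actg1, chr11:120348556-120348605, minus strand: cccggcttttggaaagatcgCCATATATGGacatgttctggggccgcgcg
Myl9, chr2:156775274-156775383, plus strand: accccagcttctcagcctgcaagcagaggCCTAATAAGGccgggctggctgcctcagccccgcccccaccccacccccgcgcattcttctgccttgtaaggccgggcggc
Vcl, chr14:20929148-20929207, plus strand: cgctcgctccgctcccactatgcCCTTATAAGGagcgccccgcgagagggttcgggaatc
Acta2, chr19:34255384-34255483, minus strand: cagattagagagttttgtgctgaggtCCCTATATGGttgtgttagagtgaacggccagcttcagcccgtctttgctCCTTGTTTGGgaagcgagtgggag
Lmod1, chr1:135324603-135324672, plus strand: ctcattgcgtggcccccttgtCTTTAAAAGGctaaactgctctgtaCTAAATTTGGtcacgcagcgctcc
Zyx, chr6:42349728-42349827, plus strand: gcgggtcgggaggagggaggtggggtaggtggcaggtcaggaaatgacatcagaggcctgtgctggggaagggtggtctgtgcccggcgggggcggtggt

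The deposited values are signals on a linear scale with a trimmed mean of 500.0 on each array, medians between 66.3 and 72.7 and highest values between 22511 and 24677. Gene results use the brightest probe set whose mean over the 4 arrays reached a filter level of 66.1, the median of all probe sets, and differences are on the scale of log2(signal + 21.7). Of the 40 genes, 39 passed this filter, as did 81 of their 93 probe sets that were not array controls, and 11744 genes passed in all. Fhl3, a LIM-domain protein, did not, with signals of 3.3 (untreated), 27.6 (TGF-beta2), 4.7 (SB431542) and 7.4 (5Z-7-Oxozeaenol), and Myh11 passed narrowly with a mean of 81.1. The beta-actin control transcript had a ratio of its 3′ to its 5′ probe set between 0.973 and 1.00 on the 4 arrays, and for the GAPDH control the ratio lay between 0.851 and 0.932.

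Most of these genes had bright probe sets. Of the 39 genes, 17 had a mean signal over the 4 arrays of at least 10000, a level that 2.84% of all genes reached, and 26 reached 5000 against 8.46% of all genes. Only 5 lay below 1000, namely Actc1, Lmod1, Smtn, Myl6 and Myh11. For Myl6, the essential light chain, 2 further probe sets, annotated to 3 genes each and so not counted as its own, read between 13419 and 14899. In the plot of signals by gene, most genes form a tight cluster of 4 points. Signals of different probe sets depend on their probes as well as on the transcript, so genes are not ranked by them here. In these RNA pools, fewer cells of a type and less RNA per cell cannot be told apart.

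**Figure D1:**
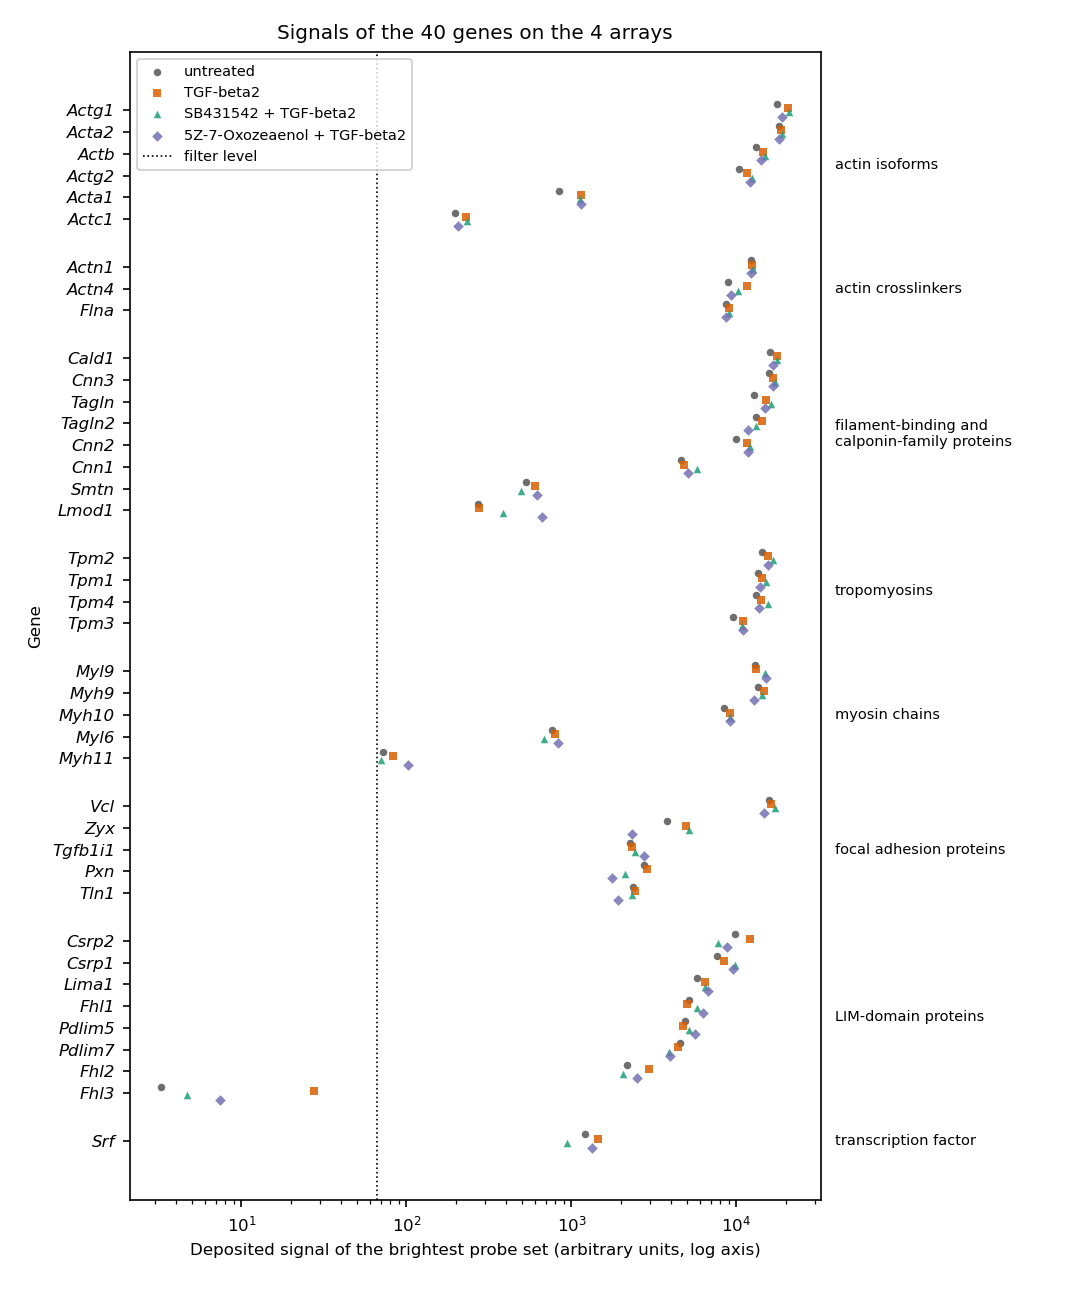
Deposited signal of the brightest probe set of each of the 40 genes (horizontal log axis, arbitrary units), with 1 marker per array and genes grouped by role. For most genes the 4 markers lie close together, while Zyx and Pxn are lowest and Lmod1 highest on the array with 5Z-7-Oxozeaenol, and Fhl3 lies left of the dotted filter level of 66.1.

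TGF-beta2 against untreated asks what 120 minutes of the ligand does to these transcripts. None of the 39 genes was at least 2-fold higher or lower, where 0.673% of all genes were higher and 0.366% lower, nor did any reach 1.5-fold, where 3.01% were higher and 2.46% lower. Small differences ran mostly one way: 36 of 39 genes were above 0, with a median log2 difference of 0.12, against 44.0% of all genes above 0 and a median of −0.03. This depended in part on the scaling. After quantile normalization 26 of 39 were above 0 with a median of 0.05, and after median centring 33 of 39 with a median of 0.09. Of all genes, 44.1% and 38.6% were above 0 in these settings. Among the 993 genes as bright as 5000 or more, 61.1% were above 0 as deposited. After quantile normalization the share at that level was 43%, and after median centring 52.9%. Across all 4 arrays the range of a gene had a median of 0.26 on the log2 scale for the 39 genes, and 0.38 for all genes. For the 26 of the 39 with a mean signal of at least 5000 it was 0.22, and 0.20 for all genes at that level.

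Among actins, Acta2, the smooth muscle actin that marks contractile fibroblasts, read 18162 (untreated), 18696 (TGF-beta2), 18920 (SB431542) and 18024 (5Z-7-Oxozeaenol). The 4 signals spanned 0.07 on the log2 scale, the second smallest range of the 39 genes. These signals lay near the highest on any array, 24677, and whether the scale is compressed there was not tested. A dimmer Acta2 probe set, described further on, was not level. Acta1, the skeletal muscle actin, read 836, 1145, 1131 and 1142 in the same order, so that the untreated array alone was low and the difference with TGF-beta2 was 0.44, the largest of the 39. The cardiac actin gene Actc1 read 196, 229, 234 and 207. Actb and Actg1, the cytoplasmic actins, had log2 differences of 0.15 and 0.22 with TGF-beta2, and Actg2, the enteric smooth muscle actin, 0.17. A second Actb probe set differed by 0.02 and its 3 control probe sets by 0.20 to 0.26. Actin coding sequences are nearly identical between isoforms, so a probe set may read more than 1 of them, and each isoform's value is uncertain to that extent.

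Crosslinkers and filament-binding genes were as even. Actn4, an alpha-actinin, read 8850, 11526, 10291 and 9288, highest with TGF-beta2 with a difference of 0.38 from untreated. The other alpha-actinin, Actn1, differed by 0.02, and filamin A, Flna, by 0.06. As deposited, all 8 filament-binding genes were above 0 with TGF-beta2, where 44.0% of all genes were. Of genes with a mean signal of at least 5000, 61.1% were. In some of the alternative settings Cnn3, Cald1 and Lmod1 lay below 0. Tagln, which encodes the smooth muscle protein SM22-alpha, had the largest difference of the 8 at 0.24. It read 12830, 15180, 16126 and 14825, with the untreated array lowest. Cnn1, the smooth muscle calponin, differed by 0.06. The 4 tropomyosins, which wrap the filament and set access for myosin, lay between 0.09 (Tpm1) and 0.20 (Tpm3), and the 5 myosin chains between 0.02 (Myl9) and 0.14 (Myh11).

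In focal adhesion and LIM-domain genes the values were more mixed. Zyx, the adhesion protein zyxin that responds to tension, had a difference of 0.38, and the other 4 focal adhesion genes lay between 0.03 (Vcl, vinculin) and 0.06 (Pxn, paxillin). Fhl2, a LIM-domain coregulator, read 2183, 2956, 2056 and 2486, with a difference of 0.43. Csrp2, a LIM-domain protein of smooth muscle and fibroblasts, read 9759, 12166, 7776 and 8761, with a difference of 0.32. The TGF-beta2 array was the highest of the 4 for both genes. The 3 genes below 0 were Pdlim5 (−0.05), Pdlim7 (−0.03) and Fhl1 (−0.03), also of the LIM-domain class. Srf itself read 1209, 1440, 943 and 1334, a difference of 0.25. Of the 11 genes with a CArG box, the median difference with TGF-beta2 was 0.20, and it was 0.10 for the 21 without an exact one that passed the filter. The values overlapped, from −0.03 to 0.44 in the 11 and from −0.05 to 0.38 in the 21. In the same order, the medians were 0.03 and 0.02 with SB431542 over TGF-beta2. With 5Z-7-Oxozeaenol over TGF-beta2 they were −0.004 and −0.04.

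**Figure D2:**
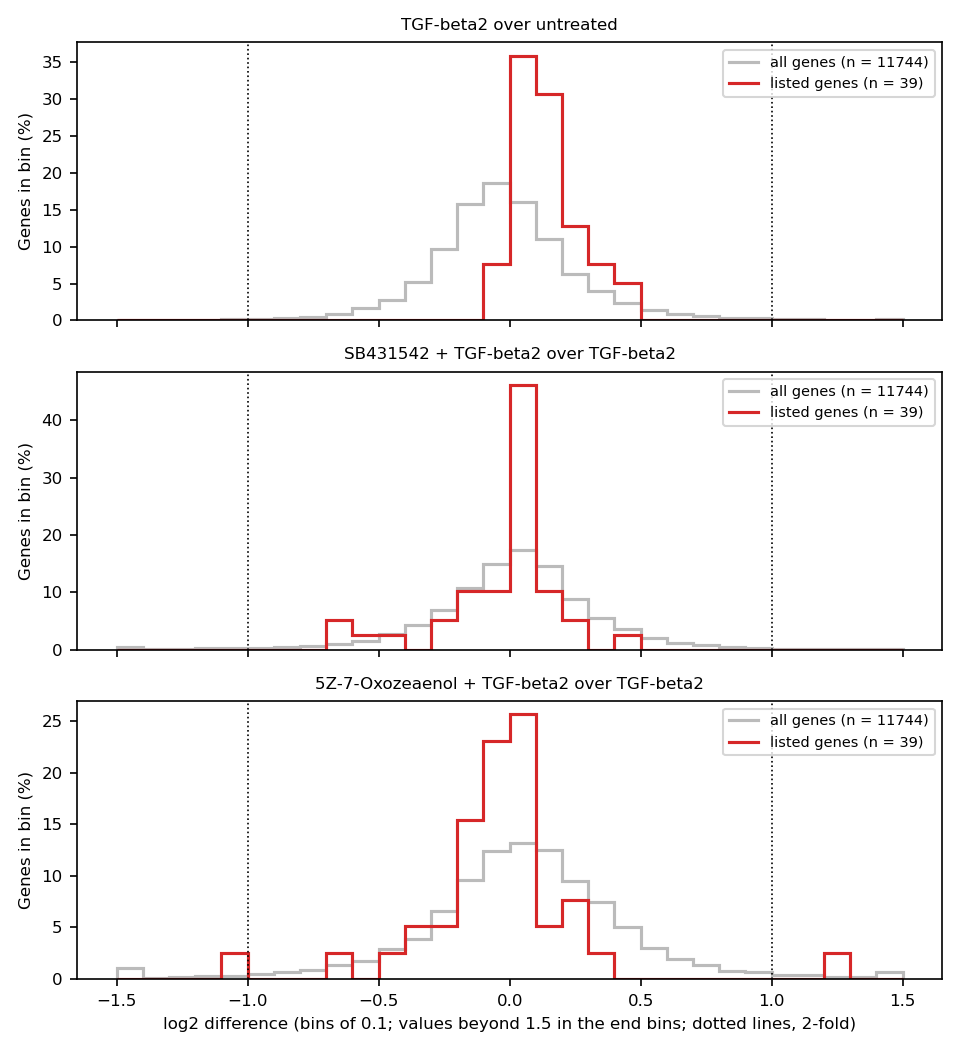
Share of genes (vertical axis, percent) by log2 difference (horizontal axis, bins of 0.1) for the 39 genes in red and all 11744 genes in grey, in 3 comparisons. The red outline lies within the 2-fold lines with TGF-beta2 and with SB431542, and 1 gene lies beyond each line with 5Z-7-Oxozeaenol, Zyx on the left and Lmod1 on the right.

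The next comparison, of SB431542 plus ligand with ligand alone, asks which of these transcripts respond to blocking the type I receptor kinase. None of the 39 genes was 2-fold apart, where 0.613% of all genes were higher and 1.18% lower. At 1.5-fold 2 genes were lower, Csrp2 and Srf, which is 5.13% of the 39 against 3.94% of all genes, and none was higher against 3.64%. The median over the 39 was 0.03, near the 0.03 over all genes.

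Csrp2 had the lowest value, with a log2 difference of −0.64, and Srf followed with −0.60. The second Srf probe set was lower too, by −0.42, with signals of 805 (untreated), 908 (TGF-beta2), 673 (SB431542) and 584 (5Z-7-Oxozeaenol). For both Srf probe sets the SB431542 array was below untreated as well, by −0.35 and −0.25. Fhl2 was lower by −0.52 and Pxn by −0.44. With TGF-beta2 over untreated Csrp2, Srf and Fhl2 had values of 0.32, 0.25 and 0.43, and both comparisons use the same TGF-beta2 array. Pxn read 2742, 2855, 2101 and 1765, with the 2 inhibitor arrays low and the other two nearly equal.

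Structural genes of the filament were nearly level with SB431542. The 6 actins lay between −0.02 and 0.09, and the 4 tropomyosins between −0.01 and 0.14. The highest values were Lmod1 (0.45), Cnn1 (0.26), Csrp1 (0.22) and Myl9 (0.19), the last encoding the regulatory light chain of smooth muscle and non-muscle myosin. Cnn1 read 4625, 4810, 5769 and 5060, highest with SB431542. Directions of values under 0.1 are not firm, since after median centring 27 of the 39 genes lay below 0 in this comparison, where 14 did as deposited. Of all genes, 42.8% lay above 0 after median centring and 55.2% as deposited. Of those with a mean signal of at least 5000, 40.3% and 66.1% did.

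The array with 5Z-7-Oxozeaenol plus ligand, set against ligand alone, asks the same of Tak1. By the 2-fold rule 1 gene was higher here and 1 was lower, each 2.56% of the 39, where 1.82% of all genes were higher and 2.17% lower. These shares are near those of all genes. The median over the 39 was −0.03, against 0.05 over all genes, and 24 of the 39 lay above 0 after quantile normalization where 17 did as deposited. The shares above 0 in these settings were 54.6% and 57.4% of all genes, and 53.5% and 35.9% of those with a mean signal of at least 5000.

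Zyx was the lower gene. It read 3807 (untreated), 4953 (TGF-beta2), 5130 (SB431542) and 2317 (5Z-7-Oxozeaenol), so that the 5Z-7-Oxozeaenol array alone was below untreated. The log2 difference from TGF-beta2 alone was −1.09, or 2.13-fold lower, and that from untreated −0.71. Its second probe set, far dimmer, read 246, 290, 284 and 158 and differed by −0.80, and with the 2 averaged the value was −0.94, short of 2-fold. Over the alternatives the difference lay between −1.14 and −0.94.

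Lmod1 was the higher gene. It encodes leiomodin 1, which starts new actin filaments in smooth muscle. Its signals were 270 (untreated), 275 (TGF-beta2), 384 (SB431542) and 665 (5Z-7-Oxozeaenol), level on the first 2 arrays and highest on the last. The difference was 1.21 (2.32-fold) from TGF-beta2 alone and 1.24 from untreated. Lmod1 had 1 probe set, so no second reading exists, and its mean signal of 372 lay under the stricter filter. Myh11, the smooth muscle myosin heavy chain, read 72.6, 82.5, 70.3 and 102, barely above the filter level, and its difference was 0.25.

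Among the other focal adhesion genes, Pxn, Tln1 and Vcl were lower with 5Z-7-Oxozeaenol on their brightest probe sets and Tgfb1i1 was higher, none by 2-fold. Pxn was lower by −0.69 on its brightest probe set and by −0.87 on a second one, which read 642, 722, 406 and 385. Tln1, the integrin activator talin 1, read 2365, 2433, 2316 and 1925, with a difference of −0.33. Its other two probe sets were far dimmer and differed by 0.02 and −0.73. Vcl, which binds talin, differed by −0.13, and Tgfb1i1, the paxillin relative Hic-5, was higher by 0.23. Zyx and Pxn were the 2 genes at least 1.5-fold lower, 5.13% of the 39 against 5.8% of all genes, and Lmod1 was the 1 gene at least 1.5-fold higher, 2.56% against 7.02%.

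Outside the adhesion class, Csrp2 differed by −0.47, Actn4 by −0.31 and Tagln2, a transgelin of non-muscle cells, by −0.30. On the higher side, Fhl1 differed by 0.31, from 5031 to 6252, and Pdlim5, a LIM-domain partner of alpha-actinin, by 0.25. Of the 7 probe sets of Pdlim5 1 ran the other way, at 990, 1140, 989 and 733 with a difference of −0.62, and the gap of 0.99 was the largest of the 18 genes with several readings. The 6 actins lay between −0.13 and 0.05, and the 4 tropomyosins between −0.05 and 0.01. In the grid of differences by gene, the actin and tropomyosin blocks are pale in this column, while Zyx, Pxn and Lmod1 stand out.

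**Figure D3:**
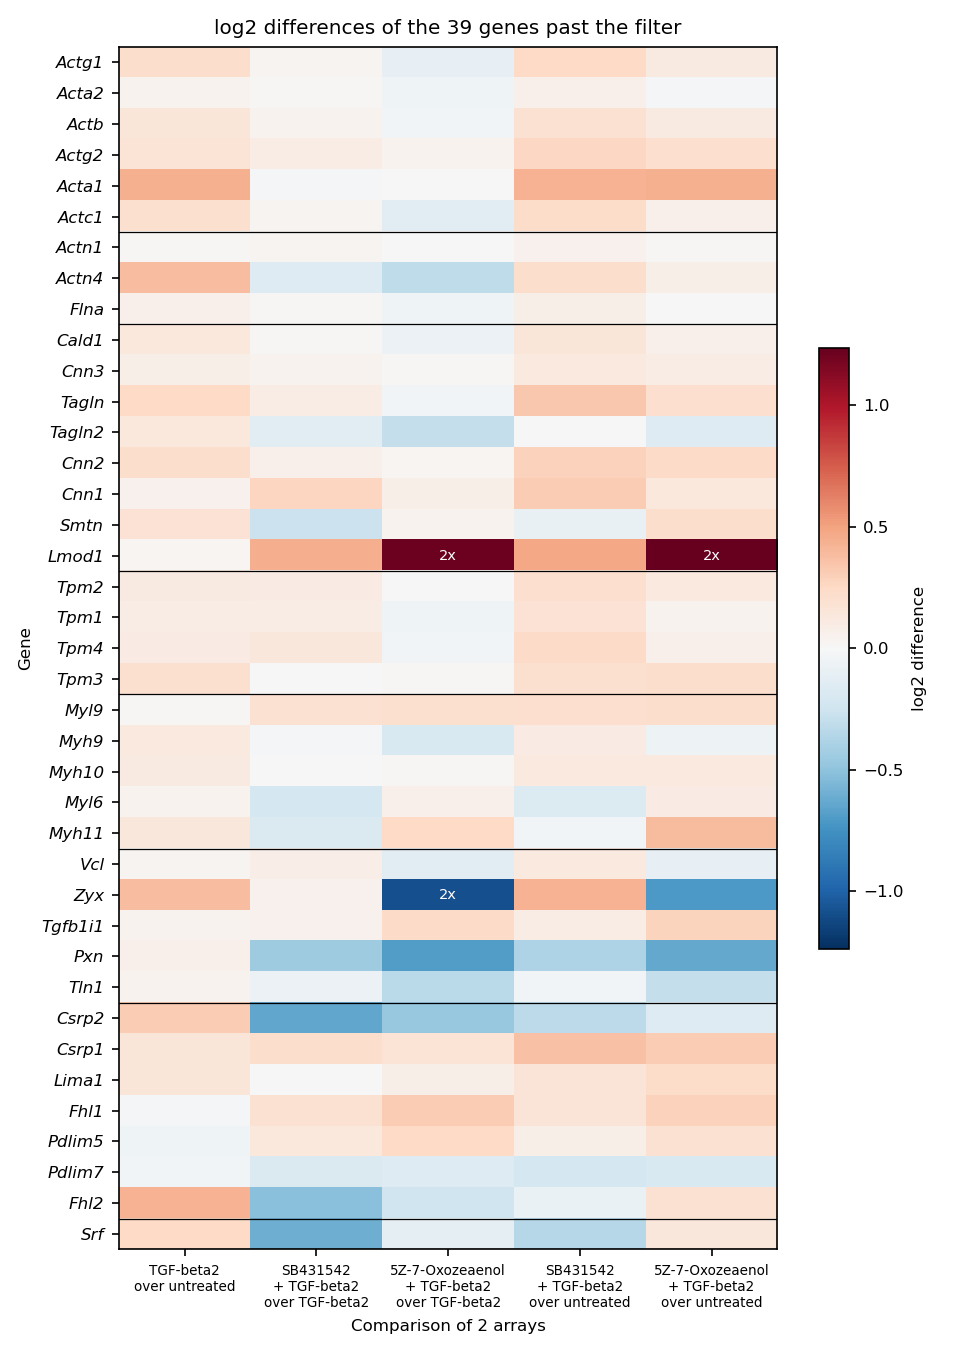
Log2 differences (colour, red higher and blue lower) of the 39 genes past the filter in 5 comparisons of 2 arrays (columns), with lines between role groups and 2x where a gene was at least 2-fold apart. The marked cells are Lmod1 with 5Z-7-Oxozeaenol over TGF-beta2 (1.21) and over untreated (1.24), and Zyx with 5Z-7-Oxozeaenol over TGF-beta2 (−1.09).

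Set against untreated, SB431542 with TGF-beta2 left no gene 2-fold apart, where 0.468% of all genes were higher and 0.383% lower, and none 1.5-fold apart, where 2.96% were higher and 2.4% lower. As deposited 30 of the 39 lay above 0, after quantile normalization 24 and after median centring 23, a setting that moved the median of all genes from −0.01 to −0.11. The shares of all genes above 0 were 49.0%, 49.2% and 31.9%, and of all genes with a mean signal of at least 5000 they were 70.5%, 50.5% and 43.5%. Its highest values were Lmod1 (0.48), Zyx (0.43), Acta1 (0.43) and Csrp1 (0.37), and its lowest Pxn (−0.38), Srf (−0.35), Csrp2 (−0.33) and Pdlim7 (−0.21). With 5Z-7-Oxozeaenol 1 gene was 2-fold higher, where 1.49% of all genes were, and none lower, where 1.51% were. At 1.5-fold 1 was higher and 2 were lower, where 5.94% and 5.25% of all genes were, and 30 lay above 0 as deposited, 26 after quantile normalization and 23 after median centring. All genes were above 0 in 53.3%, 50.2% and 41.7% under the same settings, and those of at least 5000 in 47.5%, 47.2% and 25.6%. After Lmod1, the highest values against untreated were Acta1 (0.44), Myh11 (0.39), Csrp1 (0.32) and Fhl1 (0.28), and the lowest were Zyx, Pxn (−0.63), Tln1 (−0.29) and Pdlim7 (−0.19). These comparisons share the untreated array, which was the lowest of the 4 for 23 of the 39 genes as deposited, for 15 after quantile normalization and for 13 after median centring. It was the lowest for 20.7%, 20% and 13.1% of all genes in the same order, and for 34.4%, 25% and 17.8% of those with a mean signal of at least 5000.

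The arrays with the 2 inhibitors differed by 2-fold in 1 of the 39 genes, Zyx, lower by −1.14 with 5Z-7-Oxozeaenol, where 1.3% of all genes were lower and 1.51% higher. At 1.5-fold Zyx was the 1 gene lower and Lmod1 the 1 higher, where 4.44% and 5.7% of all genes were. The largest differences upward were Lmod1 (0.76), Srf (0.49), Myh11 (0.43) and Smtn (0.31), a smooth muscle actin-binding protein. For Srf the second probe set differed the other way, by −0.20. The lowest after Zyx were Tln1 (−0.26), Pxn (−0.25), Vcl (−0.21) and Cnn1 (−0.19). Over the 39 genes the median was −0.05 with 16 above 0 as deposited, and 0.05 with 25 above 0 after quantile normalization. As deposited 53.1% of all genes and 22.4% of those of at least 5000 lay above 0, with medians of 0.02 and −0.09, and after quantile normalization 50.4% and 49.3% did.

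Several genes were read by more than 1 probe set, and 18 of the 39 had at least 2 past the filter. The gap between the highest and lowest probe set of a gene had a median of 0.20 with TGF-beta2 over untreated, 0.32 with SB431542 over TGF-beta2 and 0.43 with 5Z-7-Oxozeaenol over TGF-beta2. Over all 5121 genes with at least 2, the same gaps were 0.28, 0.30 and 0.30. All probe sets of a gene lay on the same side of 0 in 7, 6 and 10 of the 18, or 38.9%, 33.3% and 55.6%, against 45.2%, 48.4% and 56.9% of all such genes.

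Counted by probe set, 0 of the 81 past the filter were 2-fold apart with TGF-beta2 over untreated, where 0.778% of all 20064 were higher and 0.394% lower. With SB431542 over TGF-beta2, 1 was lower, of Cnn3, and 0 higher, where 1.2% were lower and 0.658% higher. With 5Z-7-Oxozeaenol over TGF-beta2 the calls were those of Lmod1 and Zyx, where 1.77% were higher and 1.87% lower. Over untreated, SB431542 had 0, where 0.618% were higher and 0.399% lower. With 5Z-7-Oxozeaenol over untreated 3 were higher, 1 each of Acta2, Lmod1 and Csrp1, and 0 lower, where 1.45% were higher and 1.27% lower. The Acta2 probe set in that count had a mean near the filter level and passed it only through its value with 5Z-7-Oxozeaenol, so its call carries no weight. Between the inhibitors 1 was higher, of Cnn3, and 1 lower, of Zyx, where 1.42% were higher and 1.15% lower.

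For Acta2 the readings parted on 1 array. Its brightest probe set was level on all arrays, while a dimmer one read 431 (untreated), 483 (TGF-beta2), 446 (SB431542) and 836 (5Z-7-Oxozeaenol), a difference of 0.76 from TGF-beta2 alone and 0.92 from untreated. Another, the one that passed the filter only through its last value, read 44.1, 70.8, 56.9 and 114. Csrp1, which encodes a LIM-domain protein of smooth muscle, showed a like split. Its brighter probe set read 7608, 8417, 9811 and 9476 and the dimmer one 2194, 2320, 3501 and 4521, so that the difference with 5Z-7-Oxozeaenol over TGF-beta2 was 0.17 on one and 0.96 on the other.

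Probe sets of tropomyosin genes, which make many splice forms, also diverged, and the part of splicing in this was not tested. For Tpm1 the brightest probe set differed by 0.09 with SB431542 over TGF-beta2 and a second by 0.41, from 9030 to 11999. For Tpm3 a probe set that read 943, 919, 1433 and 1322 was higher with both inhibitors, by 0.63 and 0.51, where the brightest differed by −0.01 and 0.01. Cnn3, a calponin of non-muscle cells, had 6 probe sets past the filter. One of them read 3290, 4046, 1692 and 4467, with the SB431542 array alone low and a difference of −1.25, while the other five lay between −0.11 and 0.08. Myh9, the non-muscle myosin II heavy chain, had 5, and its 3 brightest, at 13437, 5598 and 4372 untreated, were lower with 5Z-7-Oxozeaenol over TGF-beta2 by −0.19, −0.46 and −0.53. Actn1 had a probe set that read 1220 untreated against 632, 666 and 667 on the 3 arrays with TGF-beta2, where its brightest differed by at most 0.05.

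**Figure D4:**
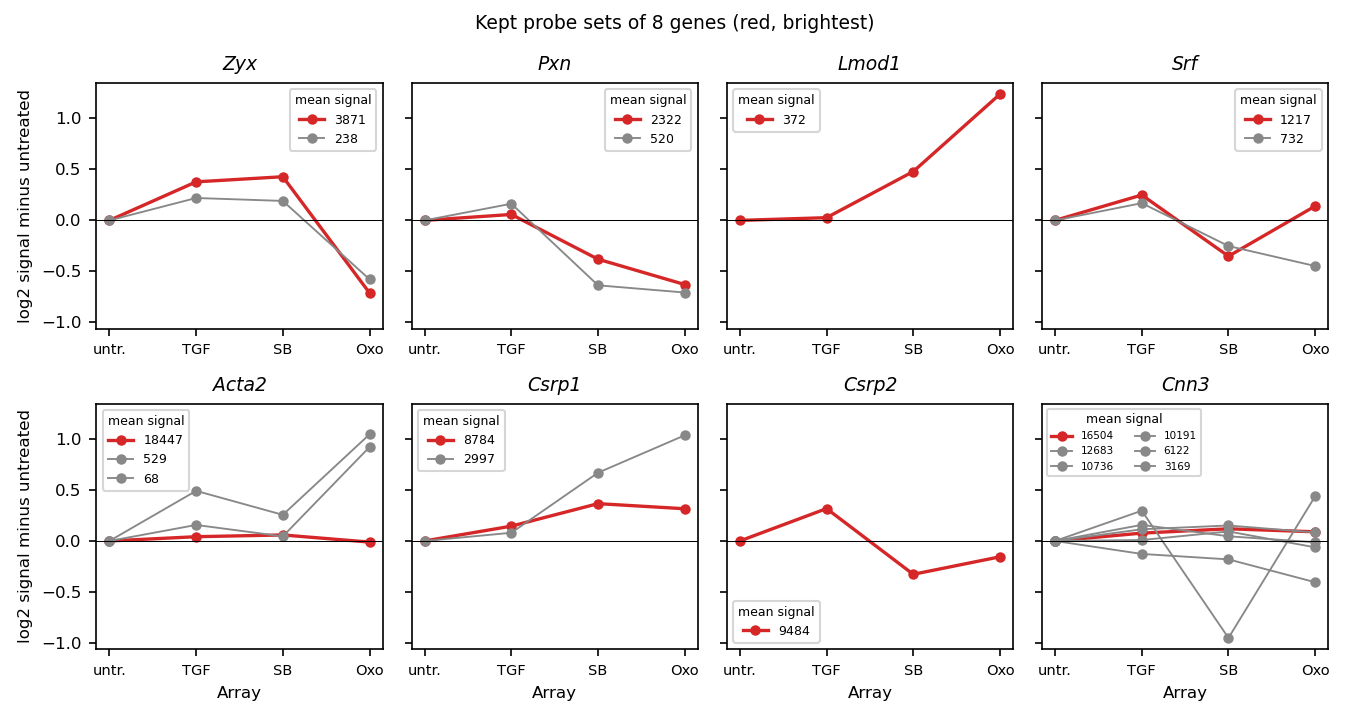
Log2 signal of each probe set past the filter minus its untreated value (vertical axis) on the 4 arrays (untreated, TGF-beta2, SB431542 with TGF-beta2, 5Z-7-Oxozeaenol with TGF-beta2) for 8 genes, with the brightest probe set in red and the mean signal of each in the key; lines only link points of 1 probe set. Both probe sets of Zyx and of Pxn are low with 5Z-7-Oxozeaenol. The dimmer Csrp1 probe set, and the Acta2 one with a mean of 529, lie further above untreated there than the brightest. The dimmest Acta2 probe set passed the filter only through its value on that array and carries no weight.

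Genes that work with these proteins were read from 2 further lists. Of 16 genes for actin turnover 15 passed the filter, and of 15 adhesion scaffold genes 14 did. No gene of these 2 lists was 2-fold apart in any of the 6 comparisons. Over all genes, the share called higher or lower in a comparison lay between 0.366% and 2.17%. With 5Z-7-Oxozeaenol over TGF-beta2 the medians of the 2 lists were −0.06 and −0.09. The median was 0.05 over all genes and −0.05 over those with a mean signal of at least 5000. Cfl1, the filament-severing protein cofilin, differed by −0.09, and Vasp, a filament elongation factor that binds zyxin, by −0.31, from 4938 to 3967. Tns1, the adhesion protein tensin 1, read 968, 1214, 684 and 691, lower by −0.81 with SB431542 and by −0.79 with 5Z-7-Oxozeaenol.

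Cell type markers were read from lists of their own. Of 10 palatal mesenchyme markers 9 passed the filter, and their summed signal, mostly that of collagens and Vim, lay between 88294 and 98938. Pdgfra, a receptor of mesenchymal cells, read 3643 (untreated), 1704 (TGF-beta2), 3835 (SB431542) and 3386 (5Z-7-Oxozeaenol). It was the 1 marker of the 9 that was 2-fold apart, lower by −1.09 with TGF-beta2 over untreated and higher by 1.16 with SB431542 over TGF-beta2. Of all genes, 0.366% were 2-fold lower in the first of these comparisons and 0.613% higher in the second. Pdgfrb ran the other way, at 8363, 10391, 6529 and 6510. With TGF-beta2 over untreated the collagens and Vim were also above 0, Prrx1, Twist1 and Msx1 were below, and the median of the 9 was 0.11. Twist1, a mesenchymal transcription factor, read 1147, 705, 1218 and 752. Osr2, a palate regulator, did not pass, with signals of 13.7, 30.1, 6.8 and 30.4. Of 12 skeletal muscle markers, 2 passed, Myod1 and Des. Of the other ten, Ckm, Mylpf and Chrna1 lay above the filter level on at least 1 array, with highest signals of 98.3, 81.1 and 94.7, and 7 were under it on every array, Myog and Myf5 among them. The summed signal of the list was 717 (untreated), 659 (TGF-beta2), 610 (SB431542) and 340 (5Z-7-Oxozeaenol). Des, the intermediate filament desmin of muscle and pericytes, read 273, 269, 289 and 80.2, and the 8 smooth muscle and pericyte markers, of which Des is one, summed to 3516, 4010, 3458 and 3585. Of the 5 of these past the filter, Des and Cspg4 were 2-fold lower with 5Z-7-Oxozeaenol over TGF-beta2, where 2.17% of all genes were. Mylk, Synpo2 and Rgs5 differed the other way, by 0.54, 0.41 and 0.06, and the median of the 5 was 0.06. Cspg4, the pericyte proteoglycan NG2, read 1121, 1658, 895 and 589, a difference of −1.46. Myocd, the coactivator of smooth muscle genes, was under the filter level with signals from 7.1 to 23.1.

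Of the remaining marker lists, the epithelial one differed most on the array on which Zyx and Lmod1 stood apart. The 9 epithelial markers, 8 past the filter, summed to 2005, 1885, 1999 and 5947, with Krt14 from 295 to 2218 and Krt5 from 233 to 1383 between TGF-beta2 alone and 5Z-7-Oxozeaenol. In that comparison Krt5, Krt14 and Krt19, 3 of the 8, were 2-fold higher and 0 lower, where 1.82% and 2.17% of all genes were. The 8 macrophage markers, all past the filter, summed to 61104, 57564, 59377 and 50977. With 5Z-7-Oxozeaenol over TGF-beta2, 0 of these were 2-fold apart and their median was −0.22. The 8 endothelial markers summed to 411, 396, 481 and 399, and 1 passed, Kdr, with 195, 178, 240 and 158. Esam lay above the filter level on the untreated array, at 71.1, and the other six, with Pecam1, Cdh5 and Tie1 among them, on none. The part of these markers in the values of Zyx, Pxn and Lmod1 was not tested.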

How the data were processed

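The deposited values are linear intensities, 1 per probe set and array, that the authors obtained with GCOS, the Affymetrix array software, per the submitters' processing notes. Neither its version nor its algorithm is stated there. The common trimmed mean of 500.0, without the lowest and highest 2%, is read from the values. From 45101 probe sets 64 controls were left out of all fits, though the 3 for beta-actin are described, and of 45037 others 34945 had 1 gene symbol. Intensities were converted to log2(value + 21.7), the 25th percentile, in Python 3.11.15 with numpy 2.4.6 and pandas 2.3.3. Probe sets with a mean over the arrays (on the log2 scale) at or above the median were kept, and the brightest of a gene stood for it. With 1 array a group no test, SD or p-value was possible, precision is limited by the number of arrays, and genes were counted by a rule of size of 2-fold, with 1.5-fold as an alternative. Differences understate changes of dim genes. The genes, lists and rules were chosen with earlier results of these data known. Named were genes at least 2-fold apart and, in each comparison, the 4 highest and 4 lowest others, and probe sets of genes whose readings disagree were chosen after their values were seen. The results were recomputed under 8 alternative settings and 1 more that was chosen after seeing the data. The steps were tested on simulated data. One further gene list, which held a gene 2-fold apart, is not reported here.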

Additional observations from a re-analysis of the deposited data

How the results depend on the processing

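The 6 comparisons gave 18 counts and medians, and 156 values of them under the alternatives, of which 142 stayed within 1.5 times the count or within 0.1 of the median. That tolerance is wider than some of the medians themselves. These were 0.03 with SB431542 over TGF-beta2, −0.03 with 5Z-7-Oxozeaenol over TGF-beta2 and −0.05 with 5Z-7-Oxozeaenol over SB431542. Several counts were 0 in every setting, so the 142 say little about how firm the small medians are. With the rule of size at 1.5-fold in place of 2-fold, 2 genes were lower with SB431542 over TGF-beta2, 2 with 5Z-7-Oxozeaenol over TGF-beta2 and 2 over untreated, and 1 was higher with 5Z-7-Oxozeaenol over SB431542. With the stricter filter, which leaves 36 of the genes, Lmod1 drops out and 0 were higher with 5Z-7-Oxozeaenol over TGF-beta2 or over untreated. With the mean of a gene's probe sets, 0 were lower with 5Z-7-Oxozeaenol over TGF-beta2 or over SB431542, where Zyx read −0.94 and −0.95. Among genes with a mean signal of at least 5000, an alternative chosen after seeing the data that leaves 26, all counts were 0. The median with SB431542 over untreated was 0.046 after median centring, against 0.15 as deposited, and the cause was not tested. That with 5Z-7-Oxozeaenol over SB431542 changed sign, to 0.053 after quantile normalization and to 0.005 with the mean of a gene's probe sets. The median with 5Z-7-Oxozeaenol over TGF-beta2 also changed sign, from −0.034 to 0.025 after quantile normalization. So did the median with SB431542 over TGF-beta2, from 0.031 to −0.040 after median centring. No paired analysis was possible because each group held 1 array. Signals near the filter level, as for Myh11, and probe sets that read several actins limit what can be said of those genes.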
